A study of Mus musculus with 289 samples.

Results

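Krt6a, Krt6b, Krt16 and Krt17 are the keratins that skin keratinocytes switch on at wound edges, and they were followed here in unwounded mouse tail epidermis. They were taken by gene symbol, not by a cut on their values, from a table of estimated read counts, as 4 of its 15019 genes. Earlier results of these data were known when they were chosen. In these cells Krt17 was an abundant and widespread transcript, with a count in 221 of 274 cells, and Krt6a was found in 116 cells. Krt16 was found in 72 cells, and on 3 of 4 plates a single cell held most of its counts. Krt6b was almost absent, with 6.15 counts in 5 cells.

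Keratins are the intermediate filament proteins of epithelial cells and assemble as pairs of a type II and a type I chain. Krt6a and Krt6b are type II chains, and Krt16 and Krt17 are type I chains that can pair with them. Interfollicular epidermis at rest carries little of these keratins, while parts of the hair follicle, the nail and footpad skin make some of them constitutively, among them the companion layer for Krt6a and the outer root sheath for Krt17. After injury keratinocytes add them to the filament network, and they are widely read as markers of an activated, migrating epidermis.

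The cells were tomato-positive keratinocytes sorted singly from tail skin of mice of a mixed CBA and C57BL/6 strain, which carried the Lrig1-EGFP-ires-CreERT2 allele together with the reporter allele Rosa26-fl/STOP/fl-tdTomato. In these animals the recombinase is driven from the locus of Lrig1, a stem cell gene of the upper hair follicle, so that hydroxytamoxifen on the tail marks cells with Lrig1 at that time together with their later descendants, whatever those express. All animals carried these alleles and received hydroxytamoxifen, and then either vehicle or PRT4165, which blocks Ring1a and Ring1b, the histone H2A ubiquitin ligases within Polycomb repressive complex 1 (PRC1). No cell came from a wound (time t0, population L1), and the ages of the animals and their number per plate are not given in the labels. The comparison asks whether wound keratins differed after the inhibitor when there was no injury. Each treatment filled 2 plates, which are the replicates. No plate held both treatments, so within a replicate number the effect of the plate and that of the treatment cannot be told apart. Where p-values are given they measure the spread between plates, which may be technical. The treatment label of the vehicle plates reads AC, which is not spelled out. Reading it as vehicle is an inference, from a treatment protocol that mentions PRT4165 and vehicle alone. The treatment labels also carry a code that differs between the arms and is not explained, so that separate experiments cannot be told apart from the treatment.

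After filtering, 70 and 55 vehicle cells and 72 and 77 PRT4165 cells remained, in the order of replicates 1 and 2. The plates summed to between 25761756 and 41592716 estimated counts, and a median cell held 141985 counts on vehicle replicate 1 and between 429383 and 538754 on the other plates. Krt14, the defining type I keratin of basal keratinocytes, had a count in 255 cells (93.1%), and its type II partner Krt5 in 73.7% of cells. The 2 measured genes of an immune list of 8 summed to between 1.69 and 5.07 CPM per plate (counts scaled to a total of 1000000), and the 4 measured genes of a melanocyte list of 6 to between 0.944 and 5.16 CPM. The 5 measured genes of a fibroblast list of 6 summed to between 7.28 and 84.3 CPM, with the highest value on PRT4165 replicate 1. Of the endothelial and Merkel cell lists, each of 4 genes, 1 gene each was measured. Pecam1 had a count in all 274 cells, at 210 to 609 CPM, and Krt20 in 1 cell.

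The paralogs lie side by side in the genome, and how far short reads tell them apart depends on how alike their sequences are. On the minus strand of chromosome 15 (GRCm38), Krt6a spans chr15:101689910-101694307 and Krt6b chr15:101676023-101680287, with 9.62 kb between them. On the minus strand of chromosome 11, Krt16 spans chr11:100246091-100248902 and Krt17 chr11:100256217-100261029, with 7.31 kb between them. The coding sequences of Krt6a and Krt6b were 97.8% identical, with 37 differences over 1662 aligned bases and an identical run of 280 bases in exon 1. Those of Krt16 and Krt17 were 78.2% identical, with 280 differences over 1285 aligned bases and a longest identical run of 55 bases. To show what a read of this study could resolve, the 75-base stretch of each pair with the most differences is printed 5′ to 3′ from the reference transcripts, as long as 1 read, with the differing bases in capitals.
Krt6a: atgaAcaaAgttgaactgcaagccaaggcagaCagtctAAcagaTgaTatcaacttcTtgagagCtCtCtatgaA
Krt6b: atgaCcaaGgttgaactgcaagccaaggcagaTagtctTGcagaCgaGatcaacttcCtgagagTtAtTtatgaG
Krt16: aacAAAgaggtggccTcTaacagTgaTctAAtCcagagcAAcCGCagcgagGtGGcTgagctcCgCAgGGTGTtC
Krt17: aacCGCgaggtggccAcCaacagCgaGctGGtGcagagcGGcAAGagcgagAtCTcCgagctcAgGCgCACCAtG

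The first pair holds 12 differences and lies in exon 4 of 9, at coding bases 802 to 876 counted from the A of the start codon, at chr15:101692484-101692558 for Krt6a and chr15:101678303-101678377 for Krt6b. The second holds 28 differences and lies in exon 5 of 8, at chr11:100247141-100247215 for Krt16 and chr11:100257782-100257856 for Krt17. The longest stretch that Krt16 and Krt17 share, in exon 6 of both, is shorter than a read and reads as follows.
Krt16 and Krt17: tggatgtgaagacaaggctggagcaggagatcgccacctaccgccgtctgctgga

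Over the whole transcripts, 56.03% of the 2204 windows of 75 bases in Krt6a occurred unchanged in another annotated gene. Of these, 797 occurred in Krt6b and 100 in Krt5. For Krt6b 60.4% of windows were its own, for Krt16 71.1%, and for Krt17 100%. Krt16 shared 335 windows with the neighbouring gene model Gm11597 and 96 with Krt14, and none with Krt17. The deposited counts are estimates: 61.5% of the values of Krt6a above 0 were not whole numbers, as were 4 of 5 for Krt6b, 92% for Krt16 and 89.7% for Krt17, against 18.3% of values over all genes. These shares did not follow the shared windows, since Krt17, with none shared, had more values that were not whole than Krt6a. The level of Krt6b is uncertain to the extent that its reads could have been given to Krt6a.

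Krt17 was the most abundant member on every plate. Summed over the cells of a plate, it came to 1630.5 CPM and 3317 CPM on vehicle replicates 1 and 2, and to 1234 CPM and 717 CPM on PRT4165 replicates 1 and 2. Both PRT4165 plates lay below both vehicle plates, and vehicle replicate 2 stood highest. In the composition-normalized (TMM) sums used for the test, vehicle averaged 2377 ± 850.3 CPM and PRT4165 978 ± 315 CPM (SD, n = 2). The log2 fold change was -1.28 (SE 0.46), with p = 0.0240 and an adjusted p of 0.935 by the quasi-likelihood test of edgeR over all 12791 genes tested, so Krt17 was not called.

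Krt6a, which pairs with Krt16 or Krt17, was at 524 CPM on vehicle replicate 1, 376 CPM on vehicle replicate 2, then 202.3 CPM on PRT4165 replicate 1 and 119 CPM on the other PRT4165 plate. The plates of the treatments did not overlap here either. Normalized sums averaged 454 ± 164.7 CPM for vehicle and 161.1 ± 50.6 CPM for PRT4165 (SD, n = 2). The log2 fold change was -1.50 (SE 0.51), with p = 0.0187 and an edgeR adjusted p of 0.923. Adding the counts of Krt6b to those of Krt6a before the fit left the log2 fold change at -1.50 and the edgeR adjusted p at 0.923.

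Krt16 was at 115 CPM on vehicle replicate 1 and 31.8 CPM on vehicle replicate 2, and at 70.1 CPM on PRT4165 replicate 1 and 11.9 CPM on PRT4165 replicate 2. Replicate 1 was the higher plate in both treatments, and the treatments overlapped. The log2 fold change was -0.93 (SE 0.95), with p = 0.355 and an edgeR adjusted p of 0.997. Its sign was not stable, since leaving out vehicle replicate 1 gave a value of 0.51 on the log2 scale and weighting every cell equally gave 0.33.

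Krt6b had 1 count on vehicle replicate 1, 4.14 counts on vehicle replicate 2, none on PRT4165 replicate 1 and 1.01 counts on PRT4165 replicate 2. For each 1000 counts of Krt6a there was 0.157 of a count of Krt6b. Its plate sums lay between 0 and 0.119 CPM, about the level of 3 counts, which is 0.0721 to 0.116 CPM depending on the plate. It did not pass the filter on low counts, and no fold is given.

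Of the 12791 genes tested, edgeR called 0% at an adjusted p under 0.05. Krt6a and Krt17 were among the 2.13% of genes that were lower with PRT4165 at an unadjusted p under 0.05, against 2.79% that were higher and 4.93% (630 genes) in either direction. Both members were also among the 15.6% of genes with the 2 PRT4165 plates below the 2 vehicle plates. DESeq2 called 1.42% of 12295 genes and none of the members, with an adjusted p of 0.397 for Krt6a and 0.580 for Krt17. The biological coefficient of variation between plates was 76.9%.

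**Figure D1:**
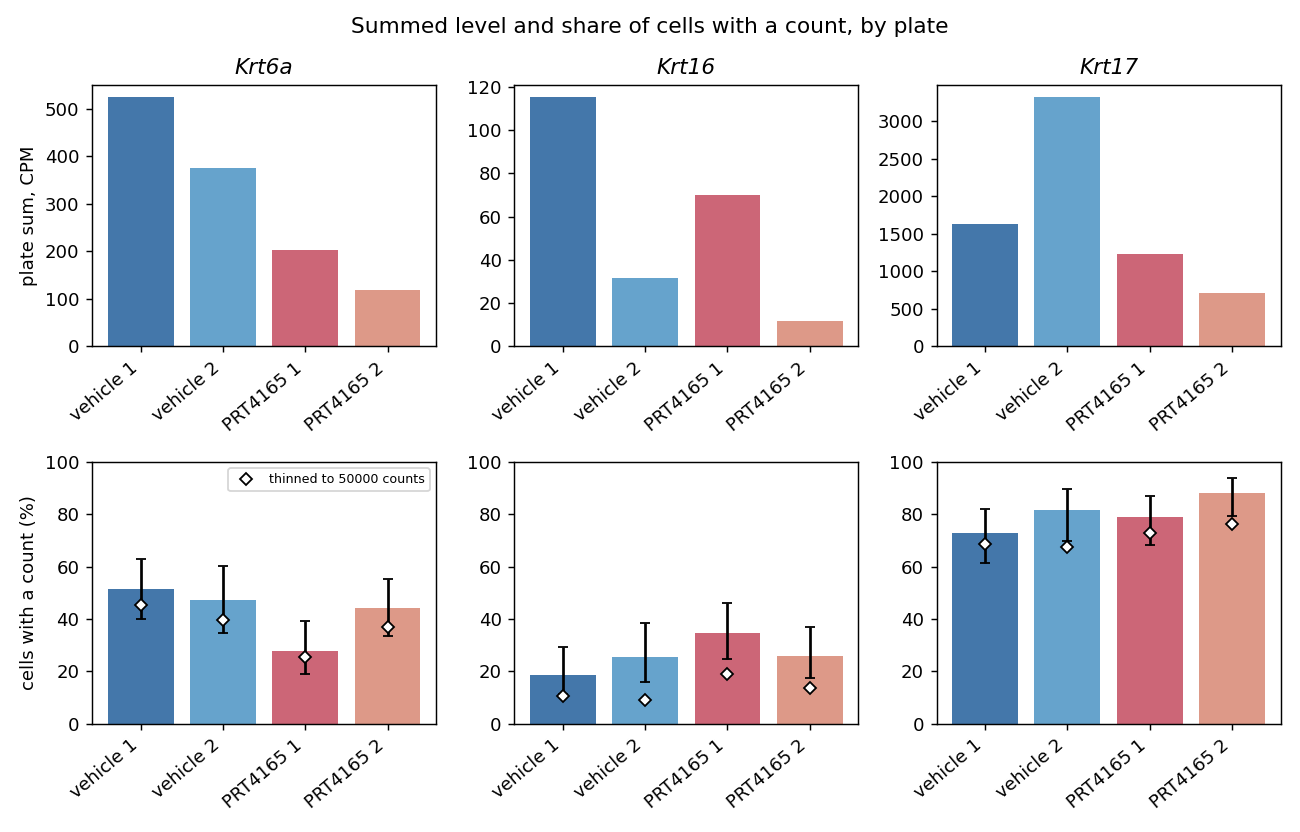
Summed level (top row, CPM) and share of cells with a count (bottom row, %) of Krt6a, Krt16 and Krt17 on the 4 plates. Bars are plates, error bars are 95% Wilson intervals, which cover counting error only, and diamonds are shares after thinning each cell to 50000 counts. Both PRT4165 plates lie below both vehicle plates for the summed level of Krt6a and Krt17, while for Krt17 the share of cells does not follow.

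For Krt6a the share of cells with a count was lower on both PRT4165 plates than on both vehicle plates, as the sums were. The order of the PRT4165 plates was the reverse of that in the sums. For Krt17 and Krt16 the shares did not split the treatments as the sums did. On the vehicle plates Krt17 had a count of at least 1 in 51 of 70 cells (72.9%) and 45 of 55 (81.8%), and on the PRT4165 plates in 57 of 72 (79.2%) and 68 of 77 (88.3%). Thus Krt17 was lower in sum on the PRT4165 plates but was not found in fewer of their cells, at 77.3% ± 6.34 for vehicle and 83.7% ± 6.47 for PRT4165 (SD, n = 2, exact two-sided permutation test p = 0.667). With 2 plates against 2 this test cannot go below 0.3333, so none of the comparisons of shares could pass 0.05.

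Krt6a had a count in 36 of 70 (51.4%) and 26 of 55 (47.3%) vehicle cells, by replicate, and in 20 of 72 (27.8%) and 34 of 77 (44.2%) PRT4165 cells. Both PRT4165 plates were below both vehicle plates, as was so for 7.69% of genes tested. The groups averaged 49.4% ± 2.94 and 35.97% ± 11.6 (SD, n = 2, exact permutation p = 0.3333), and within replicate 2 the difference was -3.12 percentage points against -23.7 within replicate 1.

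Krt16 had a count in 13 of 70 cells (18.6%) and 14 of 55 (25.5%) of vehicle replicates 1 and 2, and in 25 of 72 (34.7%) and 20 of 77 (26.0%) of PRT4165 replicates 1 and 2. The plates of PRT4165 were above those of vehicle, whereas the sums overlapped, though vehicle replicate 2 and PRT4165 replicate 2 differed by 0.519 percentage points. Such an order was common, at 31.9% of genes tested. The exact permutation p was 0.3333. When every cell was thinned to 50000 counts that were not mitochondrial, leaving out shallower cells (59, 54, 61 and 72 cells remained), the shares of Krt16 fell to 10.4% and 8.94% for vehicle and 18.8% and 13.7% for PRT4165. Those of Krt6a were then 45.5%, 39.6%, 25.6% and 36.9%, and those of Krt17 68.8%, 67.4%, 72.9% and 76.3%, in the same plate order. Krt6b had a count in 1 of 70 cells, 3 of 55 cells, 0 of 72 cells, which allows a share of up to 4.17%, and 1 of 77 cells (exact permutation p = 0.3333).

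Levels within the cells spanned a wide range. Over the cells in which Krt17 was found, its level ran from 2.85 CPM through a median of 1174 to 18645 CPM on vehicle replicate 1, and from 1.997 through 859.6 to 49816 CPM on vehicle replicate 2. On PRT4165 replicate 1 it ran from 2.47 through 582 to 9344 CPM, and on PRT4165 replicate 2 from 1.09 through 285 to 7938 CPM. The medians of the PRT4165 plates were below those of the vehicle plates, and so were the medians over all cells, at 266 and 249 CPM for vehicle and 185.1 and 152.6 CPM for PRT4165. How many genes shared this order of medians was not computed.

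For Krt6a the median over the cells with a count was 666 CPM and 255 CPM on vehicle replicates 1 and 2, and 334 CPM and 142.7 CPM on PRT4165 replicates 1 and 2, so these medians overlapped between treatments. The highest cells of the 4 plates were at 9191, 3367, 6490.2 and 1206 CPM. Cells above 1000 CPM of Krt6a numbered 15 (21.4%) and 6 (10.9%) for vehicle and 4 (5.56%) and 3 (3.896%) for PRT4165. For Krt17 these were 27 (38.6%) and 21 (38.2%) against 24 (33.3%) and 16 (20.8%). The share of cells above 1000 CPM was thus lower on both PRT4165 plates than on both vehicle plates for each of these keratins, while for Krt17 the number of such cells was not. In plate sums this order was seen in 15.6% of genes tested, and for cells above 1000 CPM its share over all genes was not computed.

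Most cells with Krt16 held very little of it. Its median over the cells with a count was 6.09, 3.38, 4.59 and 8.02 CPM in plate order, while its highest cells were at 1594, 872, 2118 and 376 CPM. Only 3 cells of vehicle replicate 1 and 2 cells of PRT4165 replicate 1 exceeded 1000 CPM.

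**Figure D2:**
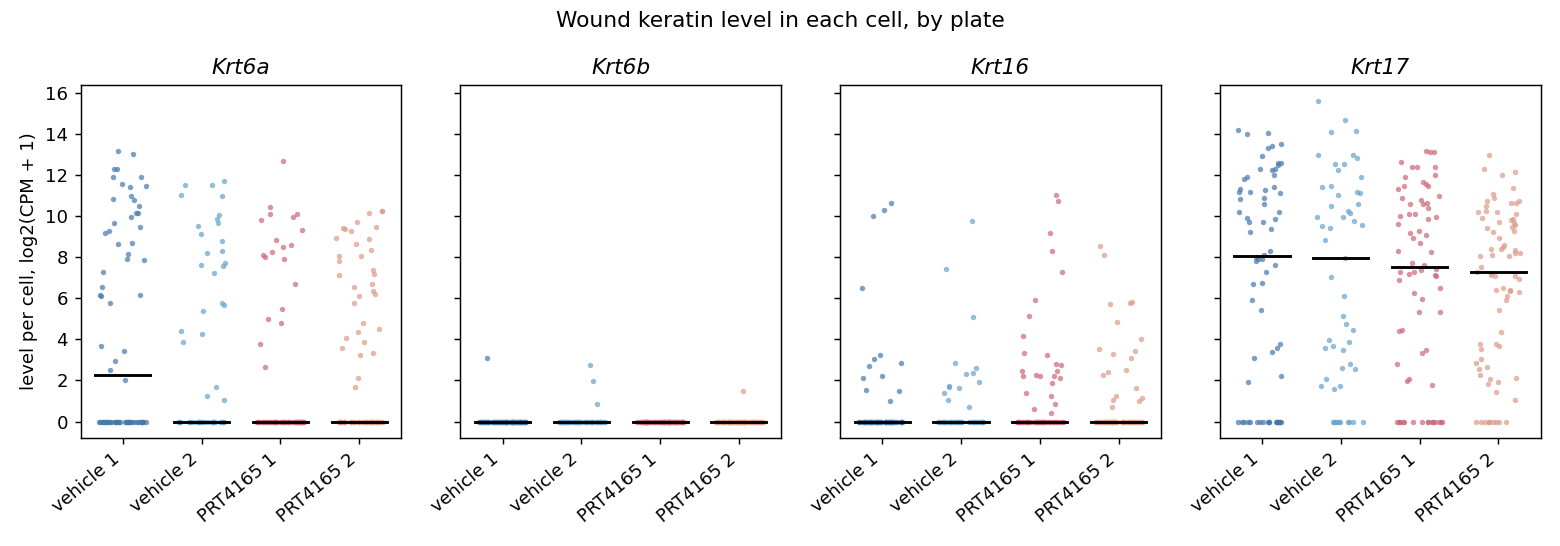
Level of each wound keratin in each cell, as log2(CPM + 1), with 1 point per cell, 1 column of points per plate, and a black bar at the median over all cells of the plate. Krt17 fills the range on every plate, Krt6a splits into cells at 0 and cells spread up to 9191 CPM, Krt16 is low apart from a few cells, and Krt6b is above 0 in 5 cells.

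The counts of a plate therefore rested on few cells. For Krt16 the top cell, meaning the cell with most counts of the gene, held 77.2% and 91.3% of the plate's counts in vehicle replicates 1 and 2, and 65.97% and 31.6% in PRT4165 replicates 1 and 2. Genes found in a similar number of cells (within 10%, 1029 genes) had a median top-cell share of 35.4%, 35.2%, 30.2% and 28.9% on the same plates. Krt16 was thus more concentrated than the median of such genes on every plate. With the top cell of each plate left out, the log2 fold change of Krt16 was -0.03.

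For Krt6a the top cell held 50.8%, 32.6%, 21.9% and 38.8% of the counts in plate order, against medians of 27.6%, 27.2%, 23.5% and 20.9% over 821 genes found in a similar number of cells. On PRT4165 replicate 1 its share was below that median, and on the other plates above. It took 11, 9, 8 and 13 cells to reach 90% of a plate's Krt6a counts, and the log2 fold change without the top cell of each plate was -1.18.

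Krt17 was spread over more cells. Its top cell held 15.4%, 21.9%, 15.8% and 15.9% of the counts in plate order, against medians of 17.9%, 14.4%, 15.3% and 10.05% over 483 genes found in a similar number of cells. It was below the median on vehicle replicate 1 and over 1.5 times the median on both plates of replicate 2. Between 4 and 5 cells made up 50% of its counts on each plate and between 12 and 22 cells made up 90%. Without the top cells its log2 fold change was -1.23.

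**Figure D3:**
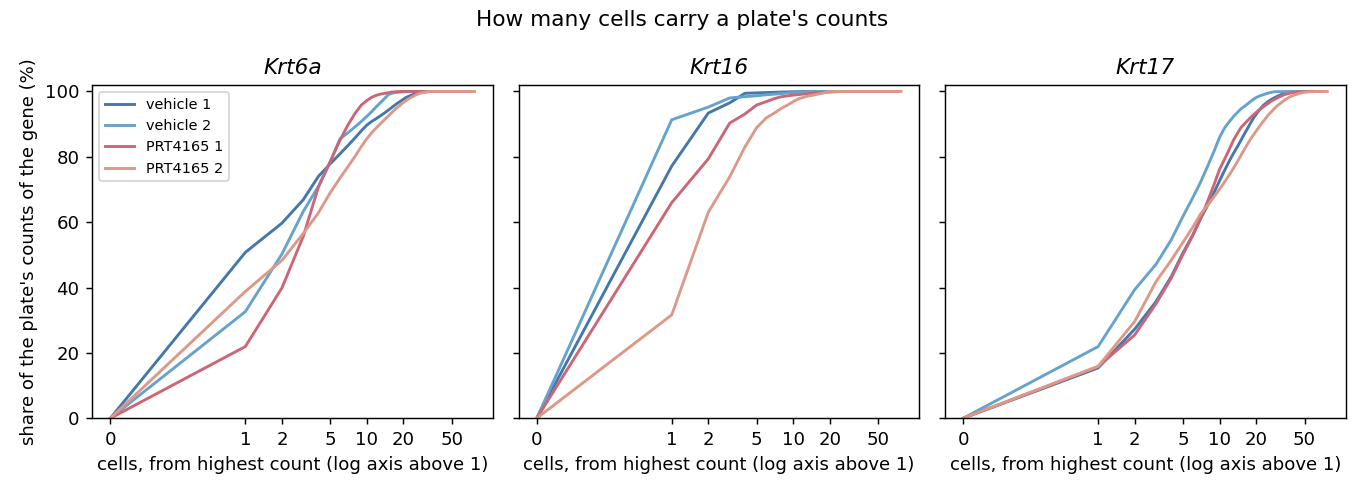
Cumulative share of a plate's counts (%, vertical axis) held by its cells, ordered from the highest count (horizontal axis, log scale above 1), for Krt6a, Krt16 and Krt17, with 1 line per plate. For Krt16 the first cell already holds between 31.6% and 91.3% of the counts, whereas for Krt17 it holds between 15.4% and 21.9%.

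The top cells were not a single kind of cell. On vehicle replicate 1 the same cell led for Krt6a, with 6853 counts, and for Krt16, with 2289.7 counts, yet it had only 75.9 counts of Krt17 and ranked 33 for that gene. It was a deep cell, holding 6.99% of all counts of its plate. On PRT4165 replicate 1 the same cell led for Krt16, with 1778 counts, and for Krt17, with 7515 counts, and had 0 counts of Krt6a. It held 16539.8 CPM of Krt79, a keratin of the sebaceous duct and infundibulum, and 2.18% of the counts of its plate. On vehicle replicate 2 the leading cell for Krt16 was second for both Krt6a and Krt17. The leading Krt6a cells of vehicle replicate 2 and of both PRT4165 plates were also among the 5 highest for Krt17.

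Over all 274 cells, 36 had a count of Krt6a, Krt16 and Krt17 together, 71 of Krt6a and Krt17, 25 of Krt16 and Krt17, and 2 of Krt6a and Krt16. Krt17 alone was found in 89 cells, Krt16 alone in 9, Krt6a alone in 7 and none of these keratins in 35. Cells with Krt6a but without Krt17 were thus rare.

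Krt17 accompanied Krt6a in 92.2% of its 116 cells, whereas Krt6a was present in 48.4% of the 221 cells with Krt17. Cells without Krt6a had Krt17 in 72.2%. The share of cells with Krt17 was higher among cells with Krt6a than among cells without it on 4 of 4 plates, at 88.9% against 55.9% and 88.5% against 75.9% for vehicle, and at 100% against 71.2% and 94.1% against 83.7% for PRT4165. At 10 or more counts of each gene the pair was found in 72 cells. Across all 274 cells the levels were weakly related (Spearman's rho 0.29, a description over cells that share plates and depths).

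Krt16 was joined by Krt17 in 61 of its 72 cells (84.7%) and by Krt6a in 38 (52.8%). The share of cells with Krt6a was higher among cells with Krt16 than without it on 4 of 4 plates, while the corresponding share for Krt17 was higher on 3 of 4 plates, with 85.0% against 89.5% on PRT4165 replicate 2. Krt16 and Krt17 were found together in 14.3% and 23.6% of vehicle cells and in 29.2% and 22.1% of PRT4165 cells, by replicate, at 19.0% ± 6.61 and 25.6% ± 5.01 (SD, n = 2, exact permutation p = 0.667). At 10 or more counts of each gene, 20 cells held both. Finding Krt16 went with depth: rho between its level and the total counts of a cell was 0.31, against -0.14 for Krt6a and 0.0040 for Krt17. With every cell thinned to 50000 counts the pair was found in 9.42% and 7.70% of vehicle cells and in 15.6% and 12.4% of PRT4165 cells. The treatments then no longer overlapped (exact permutation p = 0.3333). Such an order was common, at 31.9% of single genes tested before thinning, and its share over pairs of genes was not computed.

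The paralogs Krt6a and Krt6b met in 4 cells, 3 of vehicle replicate 2 and 1 of PRT4165 replicate 2, out of 5 cells with Krt6b. The cell of vehicle replicate 2 with 1.13 counts of Krt6b was also the leading Krt6a cell of its plate, with 4259.6 counts, whereas the cell with most Krt6b, at 2.004 counts, held 13.5 counts of Krt6a. The cell of vehicle replicate 1 had 1 count of Krt6b and none of the other members. No cell had 10 counts of Krt6b. Shared detection came to 2.73% ± 3.86 of vehicle cells and 0.649% ± 0.918 of PRT4165 cells (SD, n = 2, exact permutation p = 1). All 4 members were found in 2 cells, both of vehicle replicate 2 (3.64% of its cells), against none on the other plates (exact permutation p = 1), where a count of 0 allows up to 3.896% to 4.29% of cells.

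**Figure D4:**
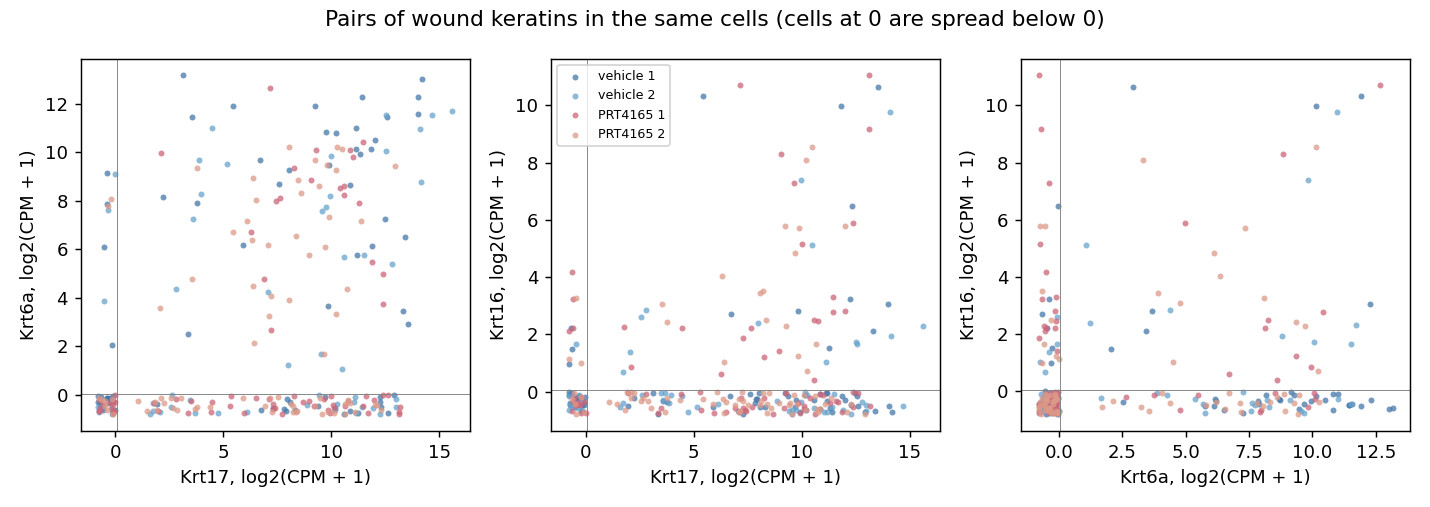
Levels of pairs of wound keratins in the same cells, as log2(CPM + 1), with 1 point per cell coloured by plate. Cells at 0 are spread below 0 so that they can be seen. In the left panel nearly all cells with Krt6a also lie to the right of 0 for Krt17 (92.2% of them), and in the other panels most cells with Krt16 are low.

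To see which cells carried these keratins, the cells were grouped into 10 clusters on variable genes from which all keratin and mitochondrial genes had been removed. Cluster 1 (39 cells) was bulge-like, led by genes that included Cd34, the surface marker of bulge stem cells, with 6 of 9 bulge markers raised. Cluster 2 (39 cells) was like differentiated interfollicular epidermis, with Krt1 and Mt4 among its 10 leading genes. Cluster 6 (28 cells) was sebaceous gland-like, with 9 of 9 markers raised, and cluster 9 (15 cells) was cycling-like, led by Cenpf. Cluster 4 (31 cells) was led by Flg2, Rptn and Klk10 and raised markers of terminal differentiation and, Krt17 itself aside, of the upper follicle, such as Krt79 and Gata6. Cluster 5 (29 cells) was led by Aspn, Pi15 and Rhoq. Like cluster 1 it raised 6 of 9 bulge markers (Krt15, Postn, Ccn2, Fgf18, Sox9 and Nfatc1), though none was among its 10 leading genes. Krt6a and Krt17 themselves aside, it also raised markers of the companion layer and root sheath (such as Krt75), basal cells (Krt5 and Itgb4) and the upper follicle (Lrig1). Krt75 had a count in only 8 cells over all plates and was raised in cluster 1 as well. Postn, raised in clusters 1 and 5 and counted here as a bulge marker, is used by the authors as a marker of the infundibulum. Clusters 4 and 5 were left unnamed, as were the remaining clusters. Values over clusters are descriptions.

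Krt6a was gathered mainly in cluster 5. Cluster 5, with 10.6% of the cells, held 56.1% and 59.2% of the summed Krt6a CPM of vehicle replicates 1 and 2, and 65.4% and 18.5% of that of PRT4165 replicates 1 and 2, a mean of 49.8% ± 21.2 (SD, 4 plates). It led on 3 plates, and on PRT4165 replicate 2 the bulge-like cluster (29.4%) and cluster 7 (28.8%) held more. Krt6a had a count in 79.3% of the cells of cluster 5, at a median of 1055 CPM, and in 79.5% of the bulge-like cells, at a median of 198 CPM. The bulge-like cluster held 16.6% and 15.8% of the Krt6a CPM of the vehicle plates, with 18.6% and 23.6% of their cells. On the PRT4165 plates it held 18.2% and 29.4%, with 6.94% and 10.4% of the cells. In the sebaceous gland-like cluster 2 of 28 cells (7.14%) had a count, at a mean of 5.46 CPM, which gives the low end of the range among these keratinocytes.

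The clusters that held Krt16 differed between plates. Cluster 4, with a count in 45.2% of its cells, held 97.2% and 79.1% of the Krt16 CPM of the vehicle plates but 12.8% and 6.44% of that of the PRT4165 plates, a mean of 48.9% ± 46.01 (SD, 4 plates). On PRT4165 replicate 1 the differentiated interfollicular-like cluster held 48.9% and cluster 5 held 33.6%, and on PRT4165 replicate 2 the bulge-like cluster held 41.5% and cluster 10 held 32.9%. Few cells stood behind these shares: over all plates a single cell made up 80.8% of the Krt16 CPM of the differentiated interfollicular-like cluster, and 1 cell made up 99.1% of that of cluster 5. The former was the leading Krt16 cell of PRT4165 replicate 1 described above, with 16539.8 CPM of Krt79. Cluster 8, the shallowest cluster with a median of 80706 counts, had Krt16 in 0 of 20 cells, which allows a share of up to 15%.

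Krt17 lay mainly in clusters 5 and 4, with a count in 96.6% and 96.8% of their cells and medians of 2714 and 3865 CPM. Cluster 5 held 33.99% and 51.3% of the Krt17 CPM of the vehicle plates and 17.8% and 23.4% of that of the PRT4165 plates, a mean of 31.6% ± 14.7 (SD, 4 plates). Cluster 4 held 29.5% and 34.1%, and 32.4% and 24.3%, a mean of 30.1% ± 4.27, so that cluster 5 led on the vehicle plates and cluster 4 on the PRT4165 plates. It was found in 89.7% of the bulge-like cells, at a median of 333 CPM, in 74.4% of the differentiated interfollicular-like cells, at 293 CPM, and in 57.1% of the sebaceous gland-like cells, at 2.14 CPM. These sebaceous gland-like cells with Krt17 were 0 of 2 and 0 of 3 on the vehicle plates, and 2 of 6 and 14 of 17 on the PRT4165 plates.

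**Figure D5:**
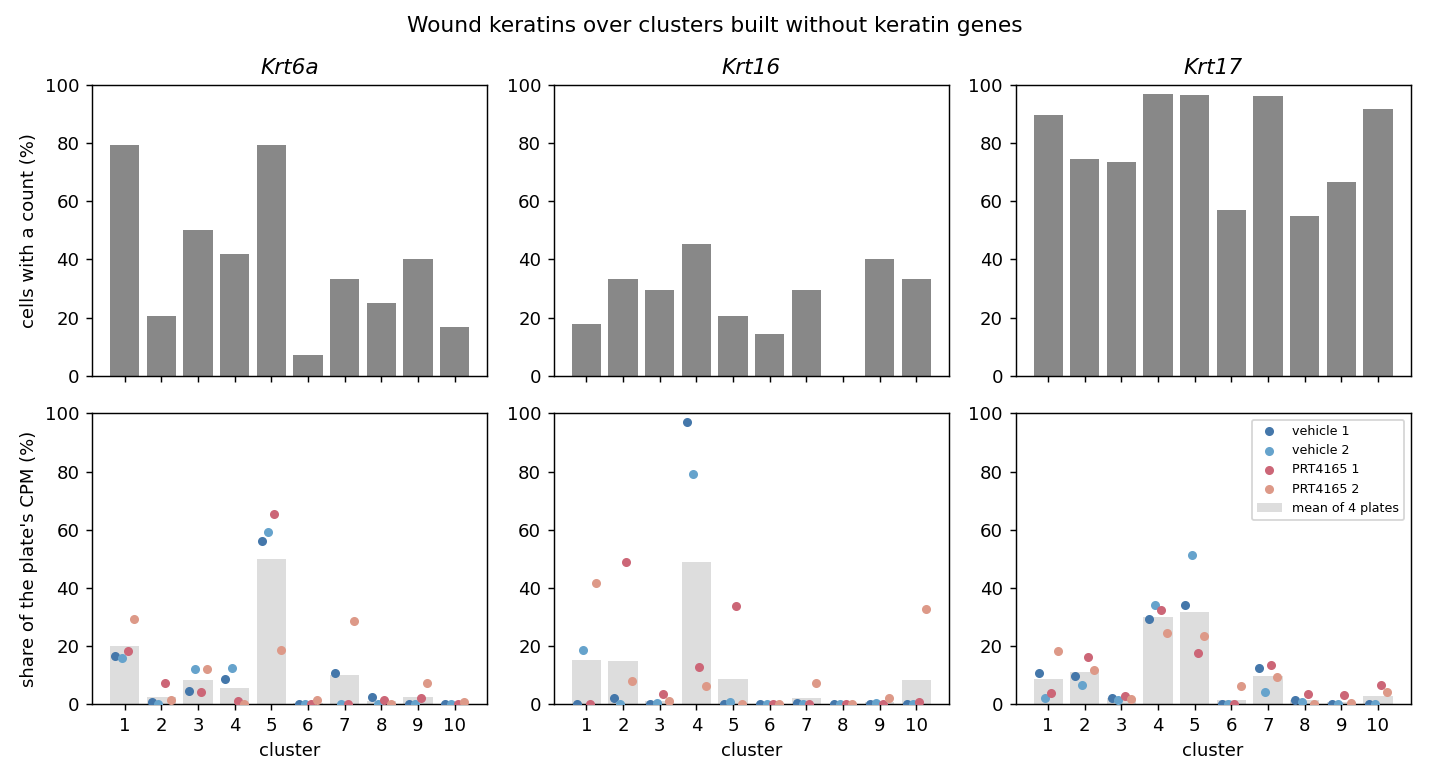
Share of cells with a count over all plates (top row, %) and share of a plate's summed CPM of the gene (bottom row, %, points for the 4 plates, bars for their mean) for 10 clusters built without keratin genes. Cluster 5 holds most of the Krt6a CPM on 3 plates, cluster 4 holds 97.2% and 79.1% of Krt16 on the vehicle plates but 12.8% and 6.44% on the PRT4165 plates, and Krt17 is spread over clusters 4 and 5.

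The makeup of the plates differed between the treatments, and these differences were not tested. Cluster 5 made up 14.3% and 12.7% of the vehicle cells and 9.72% and 6.49% of the PRT4165 cells. Cluster 4 made up 14.3% and 12.7% against 11.1% and 7.79%, and the bulge-like cluster 18.6% and 23.6% against 6.94% and 10.4%. The treatments did not overlap in the shares of clusters 3, 7 and 10 either, but did in those of clusters 2, 8 and 9. The sebaceous gland-like cluster, low in Krt6a and Krt17, made up 2.86% and 5.45% against 8.33% and 22.1%. Within cluster 5 the median Krt6a was 2789 CPM (10 cells), 1055 CPM (7 cells), 893 CPM (7 cells) and 54.2 CPM (5 cells) in plate order, and the median Krt17 was 3401, 5961, 2046 and 1218 CPM. In cluster 5 both PRT4165 plates were therefore below both vehicle plates for each of these keratins. The share of all genes with this order within cluster 5 was not computed, and in plate sums it was 15.6% of genes tested. In the bulge-like cluster the order was not the same, with a median Krt6a of 239 and 150.5 CPM for vehicle and 388 and 280.3 CPM for PRT4165. In cluster 4 the median Krt17 was 3696 and 8008 CPM for vehicle and 4524 and 1701 CPM for PRT4165. The part of the makeup in the plate sums was not tested beyond these values and the weighting that follows.

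Weighting equally the 6 clusters that had 5 or more cells on each of the plates, the difference was -0.80 for Krt6a (SE 0.52), -0.16 for Krt17 (SE 0.47) and 0.27 for Krt16 (SE 0.36), as mean log2(CPM + 1) of PRT4165 less vehicle, with limma adjusted p between 0.942 and 0.984. Weighting every cell equally gave -1.40 for Krt6a and -0.23 for Krt17, with limma adjusted p of 0.235 and 0.947. For Krt17 the log2 difference was thus -1.28 on the plate sums, against -0.23 with cells and -0.16 with clusters weighted equally.

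Per transcript length, averaged over the 4 plates, Krt17 was second of 42 keratins at 1112 CPM per kb, behind the suprabasal keratin Krt10 at 2311 and ahead of Krt79 at 999.7. Krt6a was 8th at 134.05 CPM per kb, between the basal keratin Krt5 at 153.05 and the suprabasal keratin Krt2 at 128.7. Krt16 was 10th at 36.6 and Krt6b was 41st at 0.0204. The order Krt17, Krt6a, Krt16, Krt6b held on each plate. Across plates the level of Krt17 ran from 463 to 2139 CPM per kb, above every plate of Krt6a (52.2 to 230.0), whereas Krt6a overlapped Krt16 (7.58 to 73.6). Krt17 overlapped Krt79 (575 to 1643), and Krt6a overlapped Krt5 (113 to 243) and Krt2 (11.6 to 220), so these neighbours did not differ beyond the spread over plates.

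Across the cells, the genes most like each member were sought among 5122 genes found in at least 25% of cells, by Spearman's rho of log2(CPM + 1) over 274 cells, as a description. For Krt6a they were Cxcl14, a chemokine of epithelia (rho 0.45), Krt5 (0.42) and Txn1, a thioredoxin (0.41). For Krt17 they were Hspb1, a small heat shock protein (0.57), Sbsn, a secreted product of differentiating keratinocytes (0.53), and Crabp2, a retinoic acid binding protein (0.49). For Krt16 they were Sprr1a, a cornified envelope precursor (0.31), Adam17, a membrane sheddase (0.30), and Wbp2 (0.29). The relation of Hspb1 to Krt17 lay between 0.54 and 0.64 on the 4 plates, and that of Sprr1a to Krt16 between 0.27 and 0.51.

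Krt6a rose with the basal keratins Krt5 (rho 0.42) and Krt15 (0.35) across cells but not with Krt14 (0.027), and was weakly and inversely related to Krt1 (-0.16) and Krt79 (-0.19). Krt17 was related to Sprr1a (0.42), Krt79 (0.21) and Krt10 (0.21), and Krt16 to Sprr1a alone at above 0.14 among the genes compared. For the proliferation gene Mki67, rho was -0.13 with Krt6a, 0.083 with Krt16 and -0.19 with Krt17.

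Of 25 other keratins tested, 5 (20%) had both PRT4165 plates below both vehicle plates in normalized sums and 2 (8%) above, against 15.6% and 16.4% of all genes tested. Those below were Krt5, Krt80, Krt24, Krt4 and Krt83. Of 3 basal keratins tested, none was called, with a median log2 fold change of -0.51 against -0.015 over all genes tested. Krt5 was at 275 and 535 CPM for vehicle and 288 and 248 CPM for PRT4165 before normalization. Of 6 suprabasal keratins none was called, with a median of 0.48. Krt10 was at 5522 and 2262 CPM for vehicle and 4251 and 7326 CPM for PRT4165, so the treatments overlapped. Of 8 keratins of the upper follicle, ducts and simple epithelia none was called, with a median of -0.97. Among them Krt79 was at 3446 and 1913 CPM for vehicle and 1820.0 and 1207 CPM for PRT4165, with a log2 difference of -0.85 (SE 0.49, edgeR adjusted p = 0.997). Of 8 keratins of the hair shaft and inner root sheath none was called, with a median of 1.34. In these groups 1 keratin was higher and 2 were lower at an unadjusted p under 0.05, each at an edgeR adjusted p of at least 0.876.

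Of 30 other wound and stress response genes, 20 could be tested and none was called by edgeR. At an unadjusted p under 0.05, 3 were higher and 1 was lower with PRT4165, against 2.79% and 2.13% of all genes, and the median log2 fold change of the list was -0.72. Both PRT4165 plates lay above both vehicle plates for 3 of them and below for 4, S100a8, Tnc, Cd44 and Sox9, against 16.4% and 15.6% of all genes. Sprr1a was the most abundant at 8457 and 5577 CPM for vehicle and 1384 and 8632 CPM for PRT4165, with overlapping plates. The hyaluronan receptor Cd44 was at 304 and 434 CPM against 242 and 224 CPM, with a log2 difference of -0.61 (SE 0.44, edgeR adjusted p = 0.997), and the follicle transcription factor Sox9 at 126 and 67.6 CPM against 49.4 and 46.04 CPM, at -1.03 (SE 0.61, edgeR adjusted p = 0.997).

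The genes past the unadjusted level were S100a8, Cxcl1, Serpinb3a and Fosl1, which are named after their values were seen. S100a8, an alarmin of activated epidermis, was at 155.3 and 53.0 CPM for vehicle and 0.962 and 8.34 CPM for PRT4165 (log2 fold change -4.48, SE 1.17, edgeR adjusted p = 0.862). On vehicle replicate 1 it was found in 2 cells, 1 of which held 99.95% of its counts. Cxcl1, a chemokine that attracts neutrophils, was at 0.233 and 0 CPM for vehicle and 5.17 and 17.3 CPM for PRT4165, in 5 and 10 cells of the PRT4165 plates and 1 vehicle cell (edgeR adjusted p = 0.862). DESeq2 called these, at adjusted p of 0.0021 and 0.00065. They moved in opposite directions.

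Among 16 genes known to act on these keratins none was called, 3 had both PRT4165 plates above and 3 below the vehicle plates, against 16.4% and 15.6% of all genes, and their median log2 fold change was -0.080. The stress-induced transcription factor Fos was at 547 and 487 CPM for vehicle and 873 and 510.5 CPM for PRT4165. The epidermal transcription factor Klf4 was at 276 and 117 CPM against 256 and 139.1 CPM, and Trp63, the master regulator of stratified epithelium, at 127.7 and 279.6 CPM against 176.4 and 113 CPM. Hspb1, which lay closest to Krt17 across cells, was at 513 and 676 CPM for vehicle and 414 and 382 CPM for PRT4165, with a log2 difference of -0.53 (SE 0.42, edgeR adjusted p = 0.997).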

How the data were processed

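Per the labels, single tomato-positive cells were sorted into 96-well plates and sequenced with a modified Smart-seq2 protocol (25 PCR cycles, single-end 75-base reads, no molecular identifiers). The authors quantified reads with Salmon (version 0.13.1 in the submitters' processing notes, build GRCm38) and deposited their estimated counts unscaled, in 1 table with genes as rows and cells as columns. The 289 columns were matched to samples by title. Cells with at least 1000 genes and at most 50% mitochondrial counts were kept (274, 15 removed).

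Counts were summed per plate, rounded, filtered (filterByExpr), TMM-normalized and tested by quasi-likelihood in edgeR 4.0.16 (R 4.3.3). Genes were called at a Benjamini-Hochberg adjusted p under 0.05. The test was checked on simulated counts. DESeq2 1.42.0 and limma 3.58.1 served alternatives. Shares were compared by exact permutation over plates. Intervals are Wilson 95% intervals, and they and the floor of 3 counts cover counting error only. Clusters used scanpy 1.11.5 and leidenalg 0.10.2 (2000 variable genes, 15 components, 15 neighbours, resolution 1). Sequences, lengths and coordinates are from GENCODE M21 transcripts (GRCm38).

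The labels' batch tag marks the replicate number, so the numbers pair the plates. Deviations of same-numbered plates correlated at r = 0.0435 over 12791 genes. The members and gene lists were chosen with earlier results of these data known. Named genes were the members, the 4 most abundant genes of each list and the 3 genes most like each member, from which the text takes examples.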

Additional observations from a re-analysis of the deposited data

How the results depend on the processing

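Krt6a and Krt17 were lower with PRT4165 under each of 14 alternatives and were called under none, with log2 fold changes between -2.14 and -0.80 (adjusted p 0.235 to 0.9999) and between -1.65 and -0.16 (adjusted p 0.580 to 0.9999). Krt16 was reversed under 4 of 14, at 0.51 without vehicle replicate 1, 0.33 with cells weighted equally, 0.26 at equal depth of 50000 counts and 0.27 with clusters weighted equally. The cause was not tested. Leaving out 1 plate at a time gave -1.86 to -1.06 for Krt6a (also with Krt6b added), -2.62 to 0.51 for Krt16 and -1.65 to -0.86 for Krt17, with 0 genes called in each of these fits, and the lone plate was then assumed to vary like the other group. With cells of at most 25% mitochondrial counts Krt6a was at -2.14. DESeq2 called 1.36% of the 12791 genes tested (1.42% of the 12295 that it gave an adjusted p) where edgeR called 0%.

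With the replicate number as a block the pairing changed no call: the log2 fold changes were -1.48 for Krt6a, -1.03 for Krt16 and -1.27 for Krt17, each at an edgeR adjusted p of 0.999, with 0 genes called. The mean within-number differences of the shares were the same as the unpaired ones.

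Differences in the share of cells with a count (PRT4165 less vehicle, percentage points) ranged without 1 plate from -21.6 to -5.19 for Krt6a, -4.81 to -0.779 for Krt6b, 3.96 to 12.7 for Krt16 and 1.83 to 10.97 for Krt17. For co-detection they ranged from -4.81 to 0.649 for Krt6a with Krt6b, where 0.649 was the value without vehicle replicate 2, from 1.99 to 11.3 for Krt16 with Krt17, and from -3.64 to 0 for all 4 members. At 10 or more counts the differences for Krt6b, for Krt6a with Krt6b and for all 4 members were 0, since no cell held 10 counts of Krt6b. At Leiden resolutions of 0.6 and 1.5, chosen after seeing the data, the clusters with the highest mean share over the 4 plates held 48.7% to 49.8% of the Krt6a CPM, 48.9% for Krt16 and 31.6% for Krt17, with SDs over plates of 20.7 to 21.2, 46.01 and 14.7. Krt6b was too low for any alternative on its plate sums to be given. Its 6.15 counts and the 2 plates per treatment set the limits of depth and replication.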
